A study of Mus musculus with 4 samples.

Results

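MHC class II presentation was followed through 10 genes, Cd74, H2-Aa, H2-Ab1, H2-Eb1, H2-DMa, H2-DMb1, H2-DMb2, H2-Oa, H2-Ob and Ciita. They were chosen by name as the chains, the chaperones and the master regulator of the pathway, and all 10 were found among the 31053 genes of the count tables. RNA had been counted in single mouse cells sorted as CD45hi, CD45 being the surface protein common to leukocytes. There were 4 libraries, 1 of aged brain and 1 of young brain, 1 of aged spleen and 1 of young spleen. Each library counts unique molecular identifiers (UMIs), tags that mark single RNA molecules at their 3′ end, per gene and cell barcode. A tamoxifen injection and tdTomato+ NK cells appear in the labels of every library, so that the aged and the young groups share them as far as the labels go. Ages in numbers, strain and the number of mice per library are not stated there. The cell type label of every library is neuroblast, whereas 7 neuroblast marker genes together had 100 UMIs (6.04 CPM) in aged and 21 UMIs (3.23 CPM) in young microglia, at most 4 UMIs in B cells of either spleen and 0 in splenic myeloid cells. In aged and young border macrophages they had 12 and 4 UMIs, with Dcx, Dlx1 and Dlx2 at 0 in both.

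Cells were grouped by clustering that left the class II genes out, so that no class rests on them, and clusters were named from marker genes. The names therefore stand for microglia-like, border macrophage-like, B-like and myeloid-like cells, and the suffix is dropped from here on. Microglia numbered 6572 of 11003 cells in the aged brain and 2644 of 3341 in the young brain, and border macrophages, the macrophages of the meninges, vessels and choroid plexus, numbered 898 and 192. Cells other than leukocytes were also named, although the labels give CD45hi sorting. The aged brain held 434 endothelial, 193 choroid or ependymal, 176 mural or fibroblast and 55 astrocyte cells. In the young brain these numbered 17, 15, 3 and 47. How closely the sorting was met was not tested. B cells numbered 1908 of 5288 cells in the aged spleen and 2390 of 6364 in the young spleen, and myeloid cells (monocytes, red pulp macrophages and conventional dendritic cells together) 132 and 185. The markers went with these names: P2ry12 stood at 2409 and 2593 CPM (the UMIs of a gene per 1000000 UMIs summed over the class) in aged and young microglia, Mrc1 at 1606 and 2405 CPM in aged and young border macrophages, and Cd79a at 1893 and 2387 CPM in aged and young B cells. The classes came partly from different clusters at the 2 ages. Aged microglia lay mostly in clusters led by Mlph and by Cx3cr1 (1904 and 4246 cells), and young microglia in a cluster led by Gm13166 and Fcrls (2474 cells).

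The young brain and aged spleen libraries shared barcodes far more than any other pair. Of the 8772 young brain barcodes passing the filters, 5102 (58.2%) had more UMIs in the aged spleen library, whereas at most 0.353% of cells had more UMIs in another library for any other pair. Of 5494 aged spleen barcodes passing the filters, 4903 (89.2%) had at least 500 UMIs in the young brain library. Only 1 of the 5494 had more UMIs there. Outside this pair the share with at least 500 UMIs in another library was at most 0.965%. The aged spleen barcodes were kept. The 5102 young brain barcodes are left out of the young brain values below unless stated otherwise. Cell calling and doublet scoring, however, were run with them still in. The libraries held between 26384220 and 57011537 UMIs, with medians of 2122 and 2309 UMIs per cell used in aged and young brain and 4616 and 4119 in aged and young spleen. With 1 library per group there is no replicate and no test, so every difference between ages is a difference between 2 libraries. All intervals are exact 95% intervals and cover counting error only. In place of a test, a gene was called past 2-fold when the ratio of its CPM was at least 2 or at most 0.5, counting only genes whose UMIs in both sums came to at least 50. RNA set free from broken cells was read from barcodes of at most 100 UMIs, the ambient profile of each library, and a gene at or below its ambient level was read as background. This bar is high. T and NK cells of the aged spleen held a median class II share of 0.0225% of their UMIs, against 0.684% in the ambient profile. A gene read as background may thus still be expressed, and the word means only that it did not exceed the free RNA.

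MHC class II molecules carry peptides from taken-up proteins to the surface, where CD4 T cells read them. The H2-A and H2-E heterodimers are loaded with the invariant chain Cd74, which blocks the groove until proteases cut it down, after which the H2-DM chaperone exchanges its remnant for peptide and H2-DO holds H2-DM back. Ciita is the co-activator that turns the whole set on, acting through factors bound to conserved promoter boxes upstream of the genes. B cells and dendritic cells carry class II at all times, while most resting microglia carry little and border macrophages are known to include both low and high cells.

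The shared promoter boxes are shown because the H2 genes lie together and are set side by side throughout. In the GENCODE annotation of the mouse build GRCm38 the 8 H2 members lie on chromosome 17 between 34092340 and 34316674 and Ciita lies on chromosome 16. RefSeq promoter windows (GRCm38.p6) were matched for 7 members by symbol, and none was found for Cd74, H2-Ab1 and Ciita. For the 6 members that held a match, the 150 bases just before the start site follow, in the direction of the gene, with the letters TGATTGG of the Y box and, where present, those of the X box (AAC and ATGATG with any 2 bases between them) in capitals.
H2-Oa, chr17:34092229-34092378, plus strand: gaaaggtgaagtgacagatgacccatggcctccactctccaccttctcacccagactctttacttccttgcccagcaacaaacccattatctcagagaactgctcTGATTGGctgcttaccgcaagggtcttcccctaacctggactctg
H2-DMb2, chr17:34145099-34145248, plus strand: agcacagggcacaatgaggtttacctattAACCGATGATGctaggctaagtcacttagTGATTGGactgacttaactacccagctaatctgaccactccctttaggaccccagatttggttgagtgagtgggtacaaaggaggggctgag
H2-DMb1, chr17:34153041-34153190, plus strand: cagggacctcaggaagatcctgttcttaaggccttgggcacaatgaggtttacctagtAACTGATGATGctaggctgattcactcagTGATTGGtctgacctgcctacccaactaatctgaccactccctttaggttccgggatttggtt
H2-Ob, chr17:34238755-34238904, plus strand: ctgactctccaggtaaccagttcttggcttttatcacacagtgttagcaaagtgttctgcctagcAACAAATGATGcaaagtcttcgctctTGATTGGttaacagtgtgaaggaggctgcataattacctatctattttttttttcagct
H2-Aa, chr17:34287824-34287973, minus strand: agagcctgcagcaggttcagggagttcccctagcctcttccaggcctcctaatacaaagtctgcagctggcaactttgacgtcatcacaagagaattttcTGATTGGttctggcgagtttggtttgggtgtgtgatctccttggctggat
H2-Eb1, chr17:34305717-34305866, plus strand: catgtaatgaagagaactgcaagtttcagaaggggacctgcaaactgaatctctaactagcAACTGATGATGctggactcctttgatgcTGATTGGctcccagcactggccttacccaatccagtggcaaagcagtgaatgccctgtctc

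Both sets of letters were picked after these promoters had been read, and both strands of each 300-base window were searched. The Y box letters were found in 6 of the 7 members, against 2568 of 32851 promoter windows (7.82%), and the X box letters in 4 members, against 45 windows (0.137%). Both together were found in 9 windows (0.0274%), 4 of them the windows of H2-Eb1, H2-DMb1, H2-DMb2 and H2-Ob. The first base of the Y box letters lay 45 to 92 bases before the start site in the 6 members. H2-DMa, with 2 windows, held neither run of letters in them. H2-DMa also overlaps Brd2 and 2 other annotated genes on the opposite strand, H2-Eb1, H2-Oa and Ciita overlap 1 such gene each, and no source used here says whether the counting used strand, so counts of these genes are uncertain to that extent. H2-DMb1 and H2-DMb2 are near copies: 243 of 1011 stretches of 60 bases near the end of H2-DMb1 transcripts (24%) also occur in H2-DMb2, while 0 of 447 stretches near the end of H2-DMb2 occur in H2-DMb1, so counts of H2-DMb1 are uncertain to that extent.

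In border macrophages the invariant chain, the classical chains and Ciita stood far above microglia of the same library, while H2-DMa did not. Cd74, the invariant chain, encoded on chromosome 18, had 5963 CPM in aged border macrophages and 84.4 CPM in aged microglia, a ratio of 70.7 (66.9 to 74.7), and 1827 CPM in young border macrophages against 27.4 CPM in young microglia, a ratio of 66.8 (56.7 to 79.0). H2-Eb1, the beta chain of the E heterodimer, had 2759 CPM in border macrophages and 29.0 CPM in microglia of the aged brain, a ratio of 95.2 (86.8 to 105). The alpha chain H2-Aa and the beta chain H2-Ab1 of the A heterodimer were 87.8 and 62.7 times as high in border macrophages as in microglia of the aged brain, and 108 and 75.6 times as high in the young brain. The size of these ratios rests on microglial levels read as background, and in the aged brain also on 281 cells led by Ccr2, described further on. Without those cells Cd74, H2-Aa, H2-Ab1 and H2-Eb1, the 4 core genes, stood at 26.9, 37.2, 24.3 and 33.8 times the level of aged microglia, and at 61.3, 98.4, 68.4 and 135 times in the young brain.

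Ciita went with them. It had 174 UMIs in aged border macrophages, 73.3 CPM, against 15 UMIs in the far more numerous aged microglia, 0.906 CPM, and 12 UMIs (28.2 CPM) against 5 UMIs (0.769 CPM) in the young brain. H2-DMa, the alpha chain of the peptide exchanger, stood at 301 CPM in border macrophages and 198 CPM in microglia of the aged brain, a ratio of 1.51 (1.39 to 1.64), and at 214 and 257 CPM in the young brain, a ratio of 0.833 (0.667 to 1.03). Its partner H2-DMb1 was 2.24 times as high in aged border macrophages as in aged microglia (2.03 to 2.46) and 1.35 times as high in the young brain (1.04 to 1.73). Without the Ccr2 cells H2-DMa turned to 0.967 (0.859 to 1.09) and H2-DMb1 to 1.39 (1.21 to 1.59) in the aged brain, so that H2-DMb1 was no longer past 2-fold, and Ciita stood at 41 (23 to 77.8). Of 10 members measured in the aged brain, 6 were past 2-fold higher in border macrophages, against 5.65% of all genes, and 3 were past 2-fold lower, against 9.98%. In the young brain 4 of 8 measured members were higher, against 5.97% of all genes, and 2 were lower, against 17.7%. The median log2 ratio of the members was 3.57 and 3.25 in the aged and young brain, and that of all genes -0.20 in both. The lower members were H2-DMb2, H2-Oa and H2-Ob in the aged brain and H2-Oa and H2-Ob in the young brain, all at or below 0.22 times the ambient level in border macrophages, so that no direction is read for them.

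**Figure D1:**
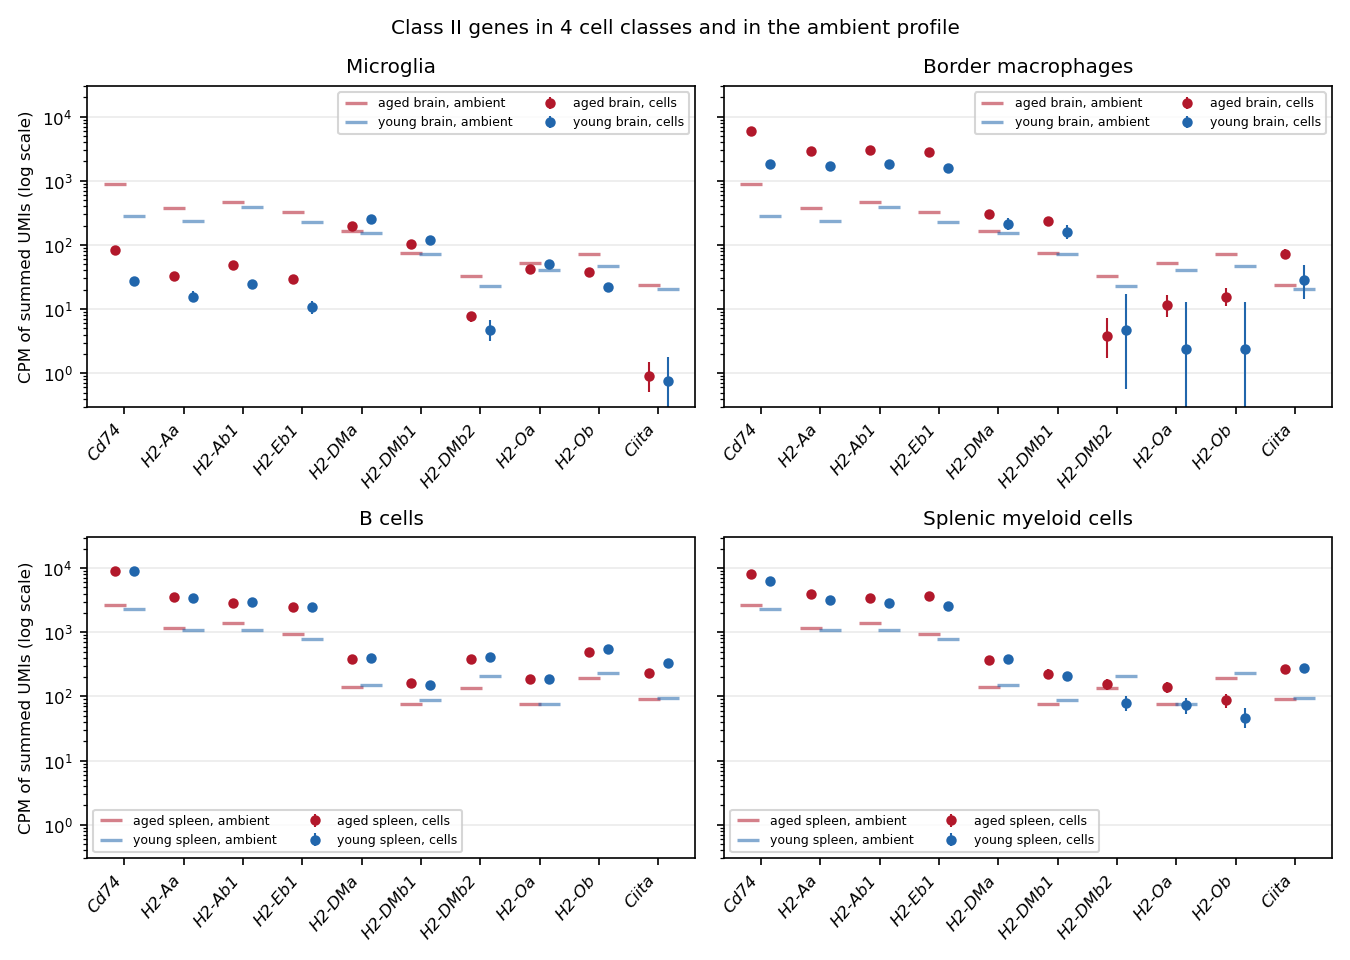
CPM of the 10 class II genes on a log axis in microglia, border macrophages, B cells and splenic myeloid cells, 1 panel per class, with aged and young libraries as points, exact 95% counting intervals as bars and the ambient profile of each library as a short line. In aged and young microglia Cd74 at 84.4 and 27.4 CPM lies below the ambient lines, whereas in aged and young border macrophages at 5963 and 1827 CPM it lies above them.

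Set against the ambient profile, microglia showed 2 kinds of class II gene. The 4 core genes lay between 0.0872 and 0.103 times the ambient level in aged microglia and between 0.0463 and 0.0972 times in young microglia, and Ciita lay at 0.0379 and 0.0374 times. These are background levels. H2-DMa lay at 1.22 times ambient in aged microglia (1.08 to 1.37) and 1.67 times in young microglia (1.46 to 1.93), and H2-DMb1 at 1.39 (1.17 to 1.67) and 1.64 times (1.35 to 2.02). Both stood above the free RNA of their own library.

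Other cells of the aged brain library give the scale. Neutrophils, which make little class II, had 0.324 times the ambient level of H2-DMa and 0.042 to 0.126 times that of the core genes. Endothelial cells had 0.581 times that of H2-DMa and 0.314 to 0.436 times that of the core genes. H2-DMa in microglia was thus above both, and the core genes in microglia were in the range of neutrophils. In cells thinned to 1000 UMIs, H2-DMa or H2-DMb1 was seen in 25.5% of aged microglia and 31.1% of young microglia, against 5.33% of neutrophils and 10.9% of endothelial cells of the aged brain. At least 1 of the 4 core genes was seen in 12.3% of aged microglia and 6.19% of young microglia, against 8% of neutrophils and 14.7% of endothelial cells. The shares of microglia lay between or below these, and with levels below ambient they are read as background. Without thinning, 36.2% of aged and 42.5% of young microglia held a UMI of H2-DMa, against 20.5% of neutrophils, at median depths of 2313, 2425 and 4047 UMIs.

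H2-DO, the partner that restrains H2-DM, behaved less clearly in microglia. H2-Oa stood at 42.3 CPM in aged microglia, 0.818 times ambient (0.66 to 1.02), and 50.9 CPM in young microglia, 1.24 times ambient (0.945 to 1.64). H2-Ob stood at 0.535 and 0.462 times ambient and H2-DMb2, the second beta chain of H2-DM, at 0.231 and 0.206 times. H2-Oa had no UMI in the 78 neutrophils of the aged brain, H2-Ob 3. Neither H2-Oa nor H2-Ob stood above the ambient level beyond counting error. On the scale of neutrophils, however, H2-Oa stood higher in microglia, so its RNA there is left undecided and is not called background.

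Between ages, the summed class II RNA of microglia was nearly level, at 587 CPM in the aged and 532 CPM in the young library, a ratio of 1.10 (1.06 to 1.15). Its parts moved in opposite ways. H2-DMa was lower in the aged library, at 198 CPM against 257 CPM in the young (ratio 0.772, 0.728 to 0.820), and so was H2-DMb1, at 105 against 118 CPM (0.889, 0.817 to 0.969). Cd74 was higher, at 84.4 CPM in aged against 27.4 CPM in young microglia, a ratio of 3.08 (2.64 to 3.62), and H2-Eb1 and H2-Aa had ratios of 2.73 (2.12 to 3.57) and 2.08 (1.68 to 2.60). These 3 were the members past 2-fold, of 9 measured, against 5.51% of all genes higher and 1.71% lower, and H2-Ab1 lay just under 2 (1.68 to 2.38). The ambient profile of the aged brain also held more of them than that of the young brain: Cd74 at 881 against 281 CPM, a ratio of 3.13, H2-Aa at a ratio of 1.6 and H2-Eb1 at 1.44. Since all 3 lie below their ambient level in both libraries, they are not read as a difference in expression. H2-DMa in the ambient profile had a ratio of 1.06 (0.894 to 1.26), the other way from its ratio in the cells, and H2-DMb1 one of 1.05 (0.813 to 1.36).

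Some of the core signal lay in a few microglia, picked here by their class II share. Class II genes made up at least 1% of the UMIs in 8 of 6572 aged microglia, 0.122% (0.0526 to 0.240), and in 1 of 2644 young microglia, 0.0378% (0.000958 to 0.211). The 8 aged cells held 21.7% of the Cd74 UMIs of all aged microglia, 6 of the 15 Ciita UMIs and 0.426% of the H2-DMa UMIs, and the young cell held 7.87% of the Cd74 UMIs. Without cells past 1%, Cd74 stood at 66.2 CPM in aged and 25.2 CPM in young microglia, and H2-DMa at 198 and 257 CPM. Microglia of a cluster led by the interferon-induced genes Cxcl10 and Ifit3 had a class II sum of 884 CPM in 168 aged cells and 810 CPM in 78 young cells, above the 532 to 587 CPM of all microglia and below the ambient sum of 2480 CPM in the aged and 1488 CPM in the young brain.

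**Figure D2:**
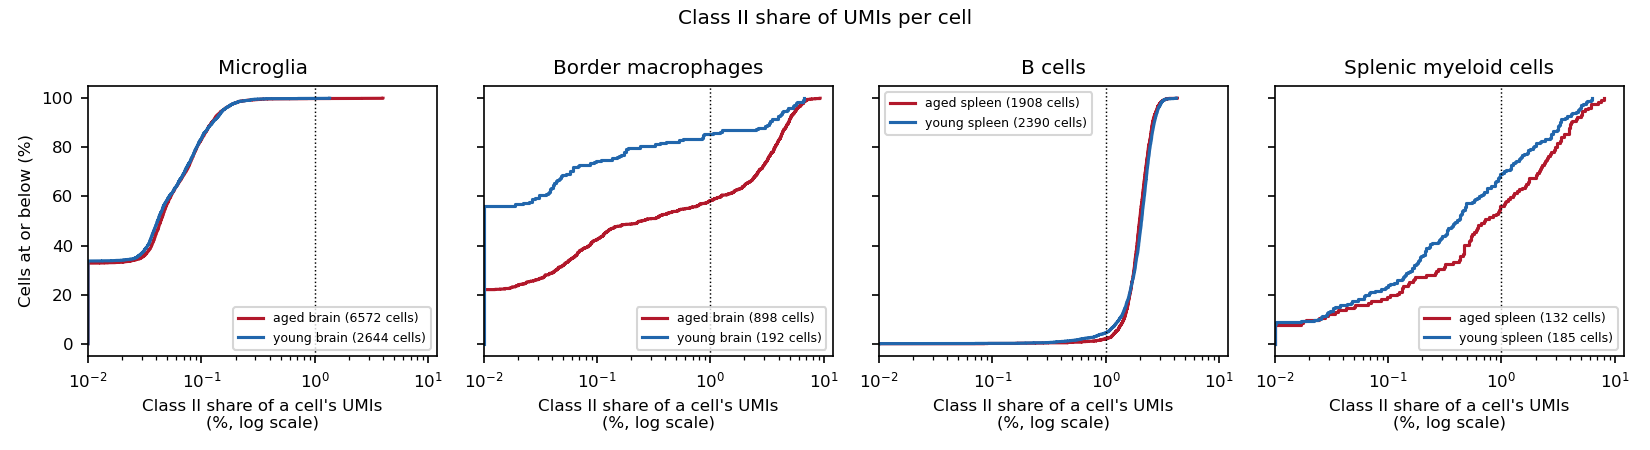
Share of a cell's UMIs from the 10 class II genes, as the percent of cells at or below each share on a log axis, 1 panel per class, aged and young libraries as separate lines and a dotted line at 1%. Aged and young B cells lie almost wholly beyond 1% (98% and 95.6% of cells), microglia almost wholly below it, and border macrophages split.

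Border macrophages were a mixture of cells with nearly no class II RNA and cells with much of it. The median cell held 0.248% class II UMIs in aged border macrophages and 0% in young ones, while the 90th percentile held 4.86% and 3.3%. At least 1% was reached by 375 of 898 aged cells (41.8%, 38.5 to 45.1) and 28 of 192 young cells (14.6%, 9.91 to 20.4), and no class II UMI was seen in 22% and 56.2%. The 375 and 28 high cells, picked here by their class II share, held 95.2% and 92.3% of all class II UMIs of their class. Their own level was 36403 CPM in aged and 41823 CPM in young high cells, and the remaining cells stood at 1234 and 676 CPM, below the ambient sum. These contrasts follow in part from the cut at 1%. In cells thinned to 1000 UMIs, at least 10 class II UMIs were seen in 43.8% of aged and 16.1% of young border macrophages.

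Summed over the class, class II RNA was 15285 CPM (15128 to 15443) in aged and 7333 CPM (7078 to 7595) in young border macrophages, a ratio of 2.08 (2.01 to 2.16). Cd74 had a ratio of 3.26 (3.04 to 3.51), from 5963 CPM in aged and 1827 CPM in young cells. Ciita had one of 2.60 (1.45 to 5.12), from 174 UMIs in aged and 12 UMIs in young cells. These were the 2 members past 2-fold of 7 measured, against 7.8% of all genes higher and 2.57% lower. The classical chains were nearer to each other, with H2-Aa at 2863 and 1693 CPM (ratio 1.69), H2-Ab1 at 3060 and 1848 CPM (1.66) and H2-Eb1 at 2759 and 1554 CPM (1.78) in aged and young cells, and H2-DMa at 301 and 214 CPM (1.41, 1.13 to 1.77). The ambient profile gave aged over young ratios of 3.13 for Cd74, 1.67 for the sum and 1.16 for Ciita, while Cd74 in border macrophages stood 6.77 times above ambient in the aged and 6.49 times in the young library, and Ciita 3.06 (2.19 to 4.37) and 1.37 times (0.644 to 2.74). Cd74 made up more of the UMIs of the 4 core genes in aged border macrophages, 40.7% (40.2 to 41.2), than in young ones, 26.4% (24.8 to 28.0).

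The ratio of the sums rests on 1 group of cells. Clustering border macrophages alone, again without class II genes, gave 7 subclusters that the libraries filled unequally: 152 of the 192 young cells lay in a subcluster led by Bc1 and Igkc, an immunoglobulin chain of B and plasma cells, which held 3 aged cells. Its leading genes also include Gm13166 and Ftl1-ps1, which are among those of the cluster of most young microglia. Whether this subcluster is a subset of border macrophages or a trait of the young library was not tested. The subcluster led by Ccr2, a chemokine receptor of monocyte-derived cells, and Plbd1 held 281 aged and 5 young cells. Its aged cells had 35918 CPM of class II RNA (35486 to 36354), and 89.3% of them reached 1%. Without this subcluster, a choice made after the data were seen, 617 aged cells had 6049 CPM and 187 young cells 6720 CPM, a ratio of 0.900 (0.863 to 0.939), the other way from 2.08. Neither Cd74, at 1.35 (1.25 to 1.47), nor Ciita, at 1.41 (0.736 to 2.97), was then past 2-fold, and the interval of Ciita spanned 1, while H2-Aa, H2-Ab1 and H2-Eb1 stood at 0.786, 0.709 and 0.683, and H2-DMa and H2-DMb1 at 0.954 and 0.936. Border macrophages then stood 10.3 times above microglia in class II sum in the aged brain and 12.6 times in the young brain, against 26.0 and 13.8 times with all cells. Leaving this subcluster out took cells almost only from the aged library. Young cells with Ccr2 stayed in: the Bc1 subcluster held 28 of the 54 Ccr2 UMIs of young border macrophages. The turn below 1 between ages is therefore partly built in and is not read as lower class II RNA in aged cells.

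The other subclusters ranged widely. Cells led by Cxcl10 and Cxcl9, chemokines induced by interferon gamma, had 20941 CPM in 103 aged and 27435 CPM in 12 young cells. Cells led by Retnla and Rnase2a had 5610 CPM in 213 aged cells and 88.3 CPM, 2 UMIs, in 16 young cells. Cells led by Cd209d and Cd209a, lectins of perivascular and meningeal macrophages, had 2295 CPM in 219 aged cells, those led by Spp1 and Lpl 1060 CPM in 35, and those led by Dqx1 and Slc1a3 2339 CPM in 44. The markers of the Spp1 and Dqx1 cells, given below, go in part against the class name. The 152 young cells led by Bc1 and Igkc had 5521 CPM, and 10.5% of them reached 1%. Ciita followed the same order among the aged cells at the top, with 154 CPM in the Ccr2 subcluster and 133 CPM in the Cxcl10 subcluster, against 40.3 CPM or less in the others. H2-Oa stayed at 36.8 CPM or less in every subcluster.

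**Figure D3:**
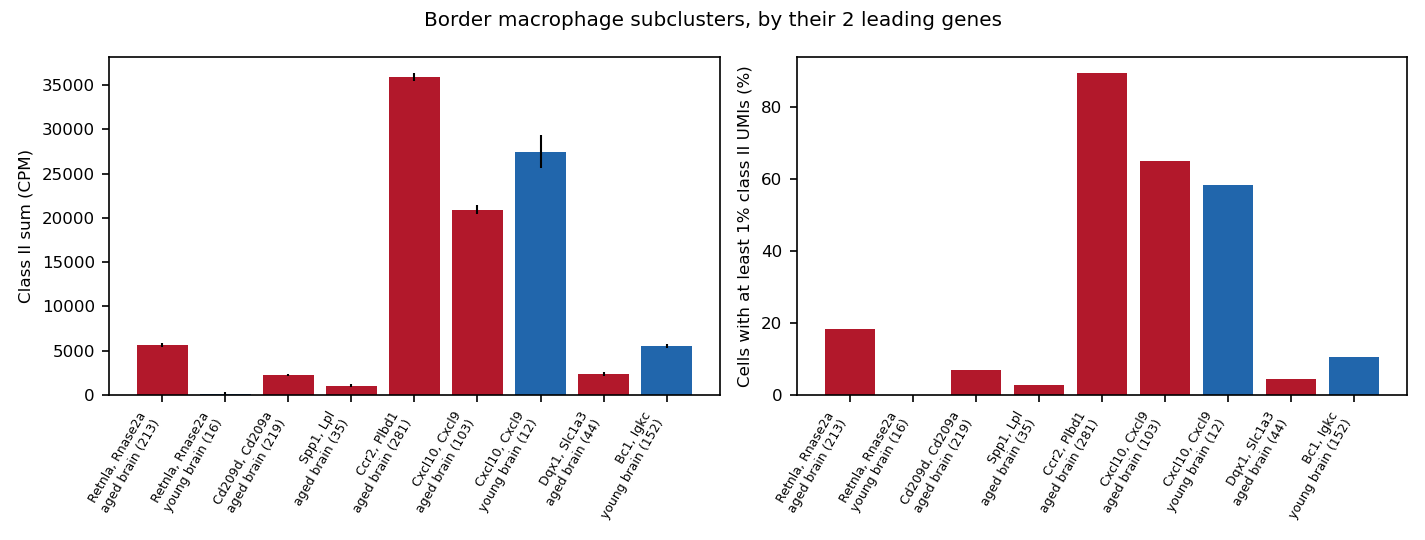
Class II sum in CPM, with exact 95% counting intervals, and percent of cells at or above 1% class II UMIs, for subclusters of border macrophages named by their 2 leading genes, with their cell numbers, aged brain in red and young brain in blue, and sets of 7 cells or fewer not drawn. The Ccr2 subcluster stands highest among aged cells at 35918 CPM, the Cxcl10 subcluster next at 20941 CPM, and the Cd209d and Spp1 subclusters at 2295 and 1060 CPM.

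In summed CPM, single genes that mark border macrophage subsets divided the class in the same direction at both ages. Cells with a UMI of Lyve1, a hyaluronan receptor of perivascular and leptomeningeal macrophages, had 2008 CPM of class II RNA against 19020 CPM in cells without one in the aged brain (ratio 0.106), and 778 against 9820 CPM in the young brain (0.0792). Folr2 gave ratios of 0.199 and 0.0913, the scavenger receptor Cd163 0.275 and 0.210, and the carbonyl reductase Cbr2 0.269 and 0.126 in the aged and young brain. The median class II share of young cells was 0% both with and without each of these 4 genes. Their young ratios thus rest on a minority of cells with much class II RNA. In aged cells the median was 0.0186% with and 1.13% without Lyve1. Higher class II RNA went with Clec12a, a lectin receptor, at ratios of 2.20 and 3.61, and with the receptor kinase Axl at 1.69 and 7.04. For Clec12a and Axl the young medians were 0.109% and 0.323% in cells with a UMI and 0% in those without. In the aged brain the 199 cells with a Ccr2 UMI had 37707 CPM against 8504 CPM in the 699 without (4.43), and the 121 cells with a Ciita UMI had 35453 CPM against 11432 CPM (3.1). The levels of these genes also differed between the libraries: over all border macrophages Ccr2 was at 278 CPM in aged and 127 CPM in young cells (2.19), Clec12a at 234 and 108 CPM (2.16) and Cbr2 at 193 and 466 CPM (0.415), 2 higher and 1 lower past 2-fold of 8 subset genes.

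Markers of other cells moved with these groups. The summed border macrophage markers stood at 6953 CPM in aged and 11622 CPM in young border macrophages, and within the aged cells at 2236 CPM in the Ccr2 subcluster, 6086 CPM in the Cxcl10 subcluster and 10300 CPM in the Retnla subcluster. The Spp1 subcluster had 355 CPM of them, near the 336 CPM of aged microglia, and 13012 CPM of microglia markers. The Dqx1 subcluster had 6480 CPM of them and 16409 CPM of microglia markers, against 26374 CPM in aged microglia. The Spp1 cells are thus not borne out as border macrophages by these markers, and the Dqx1 cells carried both sets. Median depth was 4609 UMIs in the Spp1 and 4624 UMIs in the Dqx1 subcluster, against 2218 UMIs over the class. Whether doublets remained among them was not tested. Of 10 conventional dendritic markers 9 had a UMI in aged and 8 in young border macrophages, with Ccr7 at 0 in both, and they summed to 10378 and 8897 CPM, against 28374 and 40772 CPM in aged and young microglia. The list holds Cst3, which is also among the leading genes of the cluster of most young microglia. Cells named dendritic in the aged brain had 9751 CPM of it, below microglia, so its sum is not read as a measure of dendritic cells. In the aged Ccr2 subcluster the dendritic list summed to 9283 CPM and the monocyte list to 11594 CPM, with Flt3 at 8.17, Zbtb46 and Cd209a at 5.45 and Mrc1 at 487 CPM, against 1606 CPM of Mrc1 over all aged border macrophages. Of 10 monocyte markers all 10 had a UMI in aged border macrophages (summed 10956 CPM) and 8 in young ones (12381 CPM), with Ly6c2 and Plac8 at 0 in the young. Of 10 B markers 5 had a UMI in aged and 7 in young border macrophages (summed 147 and 209 CPM), with Pax5 and Blk among those at 0 in both and Cd79a at 0 and 1 UMI. Microglia markers stood at 8383 CPM in aged and 4768 CPM in young border macrophages. The part of monocyte-derived or dendritic cells in the aged result was not tested. With cells scored as doublets kept, the class II sum was 12899 CPM in aged and 8448 CPM in young border macrophages, 123 of 1059 and 50 of 244 of these cells being doublets. At least 1% class II UMIs was then reached by 39.9% of aged and 20.9% of young cells. In the young library doublets were scored with the shared barcodes still in.

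**Figure D4:**
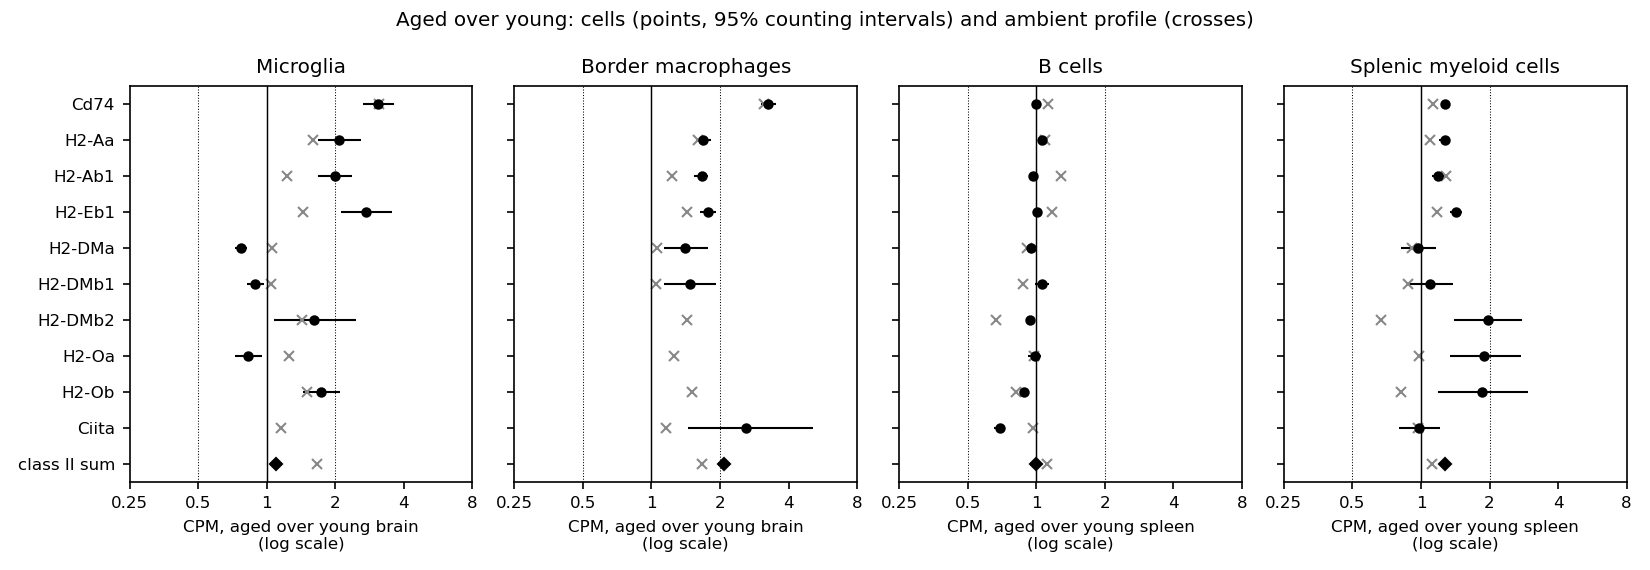
Ratio of CPM in the aged over the young library for each class II gene and their sum, on a log2-spaced axis, in microglia, border macrophages, B cells and splenic myeloid cells, with exact 95% counting intervals, and the same ratio in the ambient profile as crosses. B cell points lie near 1 except Ciita at 0.692, while in microglia the Cd74 point at 3.08 lies beside its ambient cross at 3.13.

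B cells carried the pathway evenly and nearly alike at both ages. Cd74 had 8889 CPM in the aged and 8953 CPM in the young spleen (ratio 0.993), H2-Aa 3595 and 3400 CPM (1.06), H2-Ab1 2904 and 2991 CPM (0.971) and H2-Eb1 2478 and 2453 CPM (1.01). H2-DMa stood at 383 and 403 CPM, H2-DMb2 at 383 and 407 CPM and H2-Oa at 186 and 190 CPM in aged and young B cells. The sum was 19706 CPM in aged and 19839 CPM in young B cells, a ratio of 0.993 (0.987 to 1), whose side of 1 depended on the scaling: 1.08 under median-of-ratios scaling. Of the 10 members, all measured, 0 were past 2-fold, against 1.69% of all genes higher and 1.78% lower.

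Ciita was the member farthest from 1 in B cells. It had 230 CPM in aged and 332 CPM in young B cells, a ratio of 0.692 (0.655 to 0.732), and was seen in 60.1% and 67.1% of cells. H2-Ob, the beta chain of H2-DO, followed at 496 and 558 CPM (0.888, 0.854 to 0.925). The median log2 ratio was -0.03 over the members and -0.13 over all genes. All 10 members stood above the ambient profile of their spleen, between 2.07 and 3.39 times in aged and between 1.73 and 3.85 times in young B cells. Per cell, the median class II share was 1.98% in aged and 2.06% in young B cells, and 1 of 2390 young cells and 0 of 1908 aged cells had no class II UMI.

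B cell subsets differed little in class II RNA. Cells with a UMI of Fcer2a, the low-affinity IgE receptor of follicular B cells, had 1.08 times the class II CPM of cells without one in the aged spleen and 1.20 times in the young. Those with S1pr3, a marker of marginal zone B cells, had 0.941 and 0.887 times, and those with Cd9 0.864 and 0.891 times. Fcer2a itself was at 360 CPM in aged and 672 CPM in young B cells (0.536), Cr2 at 199 and 311 CPM (0.640), and of 7 measured subset genes the age-associated B cell genes Itgax (0.391, 14 and 41 UMIs) and Tbx21 (0.449) were past 2-fold lower.

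H2-Ob stood at 496 CPM in B cells and 118 CPM in dendritic cells of the aged spleen, and at 558 and 81.2 CPM in the young spleen. H2-DMb2 stood at 383 and 214 CPM in B and dendritic cells of the aged spleen and at 407 and 147 CPM in the young spleen, whereas H2-Oa, at 186 CPM in B cells and 196 CPM in dendritic cells, was level in the aged spleen and stood at 190 and 126 CPM in the young spleen. H2-Oa and H2-Ob made up 42.4% of the UMIs of H2-DO and H2-DM in aged B cells and 43.7% in young B cells, against 9.79% in conventional dendritic cells of the aged brain, 24.6% in those of the aged spleen and 17.6% in those of the young spleen, and against 4.75% in aged and 1.23% in young border macrophages. The markers of the dendritic cells of the aged brain, given further on, are mixed. H2-DMb2 made up 70.2% and 72.7% of the UMIs of the 2 beta chain genes in aged and young B cells, against 42.9% and 31.2% in dendritic cells of the aged and young spleen and 1.58% and 2.86% in aged and young border macrophages. Set against all splenic myeloid cells, H2-Ob was 5.71 times as high in B cells of the aged spleen (4.46 to 7.45) and 11.9 times in the young spleen (8.40 to 17.6), and H2-DMb2 2.48 and 5.20 times. H2-Oa was 1.35 times as high in the aged and 2.62 times in the young spleen. These were the members past 2-fold, 2 of 10 in the aged and 3 of 10 in the young spleen, against 14.7% and 15.9% of all genes higher and 15.3% and 13.8% lower, so their number is near the background and no result about the members. H2-Ob and H2-DMb2 in young myeloid cells were themselves at 0.200 and 0.382 times ambient.

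Summed over the class, the core genes stood near each other in B and myeloid cells, while single cells did not. At least 1% class II UMIs was reached by 98% of B cells and 43.9% of myeloid cells (35.3 to 52.8) in the aged spleen, and by 95.6% and 30.8% (24.2 to 38.0) in the young spleen. The median B cell held 1.98% and 2.06% class II UMIs in aged and young spleen, and the median myeloid cell 0.712% and 0.408%. In the sums Cd74 had a ratio of B over myeloid cells of 1.11 (1.08 to 1.14) in the aged and 1.43 (1.39 to 1.48) in the young spleen, H2-Eb1 one of 0.686 (0.659 to 0.715) and 0.965 (0.919 to 1.01), and Ciita one of 0.852 and 1.21. The summed ratio was 0.971 (0.955 to 0.988) in the aged spleen, with 19706 CPM in B and 20288 CPM in myeloid cells, and 1.25 (1.22 to 1.27) in the young spleen. The side of 1 in the aged spleen turned to 1.05 with doublets kept and to 1.27 when the mean over cells was used in place of the sum, and in the young spleen that mean gave 1.87. The median log2 ratio of the members was -0.05 and 0.19 in the aged and young spleen, and that of all genes -0.01 and 0.10.

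Splenic myeloid cells had more class II RNA in the aged library, 20288 CPM against 15895 CPM in the young (1.28, 1.24 to 1.31), and were made of different cells. Dendritic cells numbered 62 of 132 in the aged and 46 of 185 in the young spleen, red pulp macrophages 51 and 107, and monocytes 19 and 32. Within dendritic cells the sums were 28124 CPM in the aged and 27519 CPM in the young spleen (1.02, 0.995 to 1.05), and within red pulp macrophages 8318 and 8242 CPM (1.01, 0.886 to 1.15). The dendritic numbers and sums leave out unnamed subclusters that scored highest on the dendritic marker list, described further on. These held 70 and 158 aged and 47 and 19 young cells, and their sums were not level between ages. The ratio of 1.02 thus covers the named dendritic cells only. Monocytes had 73 class II UMIs over 19 aged cells (416 CPM) and 655 over 32 young cells (2723 CPM), below the ambient sums of 6837 and 6127 CPM. Of the 10 members 0 were past 2-fold in myeloid cells as a whole, against 4.46% of all genes higher and 3.81% lower, the nearest being H2-DMb2 at 1.97 (1.40 to 2.79), H2-Oa at 1.90 and H2-Ob at 1.86. The median log2 ratio was 0.35 over the members and -0.01 over all genes.

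Among the named classes dendritic cells held the highest levels. The 74 of the aged brain had 35512 CPM (34886 to 36147), 14.3 times ambient, with Cd74 at 13612 CPM and Ciita at 235 CPM, against 28124 CPM in the aged and 27519 CPM in the young spleen. Of these 74 cells 70 lay in a subcluster led by Mgl2 and Cd209a. It scored 3.59 on the dendritic and 1.8 on the monocyte list. Over the 74 cells 9 of 10 dendritic markers had a UMI, with Ccr7 at 0. These markers summed to 9751 CPM, against 10378 CPM in aged border macrophages, and the monocyte list to 8381 CPM. The part of monocyte-derived cells among the 74 was not tested, so their name is held loosely. Red pulp macrophages stood only 1.22 and 1.35 times above the ambient profile of the aged and young spleen, at median depths of 714 and 731 UMIs. Plasma cells, which shut class II down as they mature, had 2938 CPM in aged and 2359 CPM in young spleen, and T and NK cells 313 and 319 CPM, all below ambient.

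**Figure D5:**
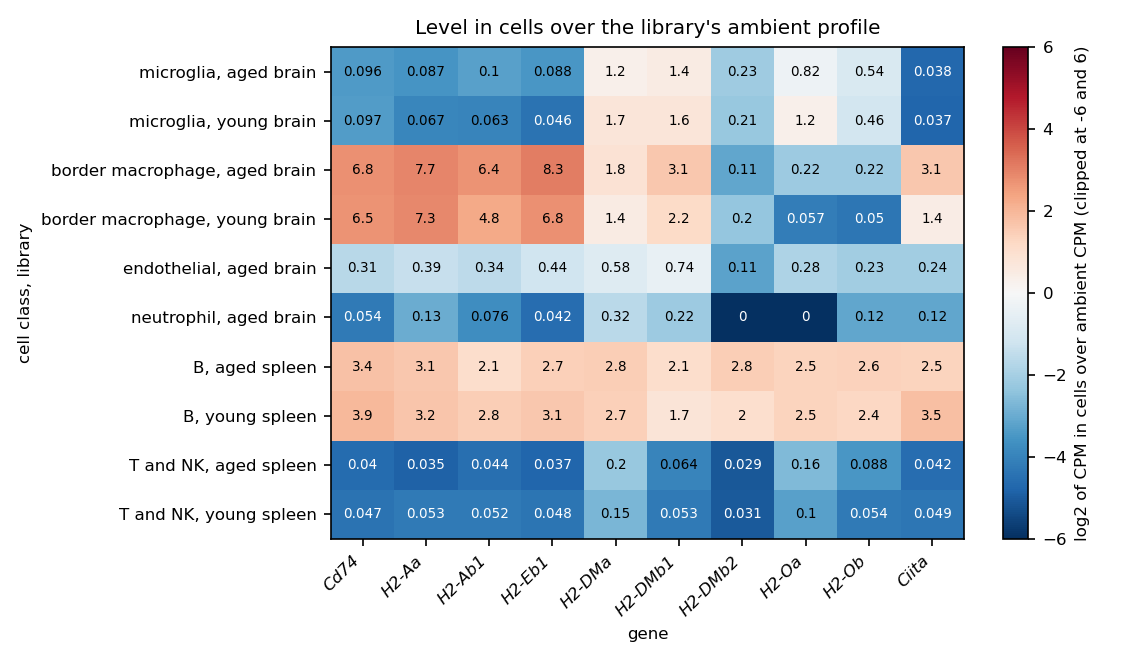
Level of each class II gene as a multiple of the ambient level of the same library, on a log colour scale, for cell classes and libraries down the page and genes across. H2-DMa and H2-DMb1 are above 1 in aged and young microglia while Cd74, H2-Aa, H2-Ab1, H2-Eb1 and Ciita are below it, and B cells are above 1 for all 10 genes.

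The other genes of the pathway were read by list. In microglia 0 of 7 class II transcription factors, 0 of 7 processing genes, 0 of 2 co-stimulation genes and 0 of 11 interferon gamma response genes were past 2-fold between ages, against 5.51% of all genes higher and 1.71% lower. Lgmn, a protease of the endosome, had a ratio of 0.600, Ctsl 0.736, Ctss, the protease that makes the last cut in the invariant chain, 1.31 and Mif, a ligand of Cd74, 1.47. Ifngr1, a chain of the interferon gamma receptor, was at 633 CPM in aged and 1043 CPM in young microglia (0.606). In border macrophages 1 of 7 processing genes was past 2-fold higher, Mif at 149 CPM in aged and 61.1 CPM in young cells (2.44), and 0 of 5 transcription factors, 0 of 1 co-stimulation gene and 0 of 9 interferon response genes were, against 7.8% of all genes higher and 2.57% lower.

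Between classes, 3 of 11 interferon response genes were past 2-fold higher in border macrophages than in microglia of the aged brain, the GTPases Iigp1 (14.5), Gbp4 (4.41) and Gbp2 (2.95), and 2 of 9 in the young brain, against 5.65% and 5.97% of all genes in the aged and young brain. Of 7 processing genes 0 were past 2-fold in the aged brain, with ratios of 0.580 for Ctss, 0.543 for Lgmn and 0.516 for Ctsl, and 4 were lower in the young brain, Ctsl (0.349), Lgmn (0.400), Ctss (0.410) and the ubiquitin ligase March1 (0.493), in a comparison in which 17.7% of all genes were lower. In B cells 2 of 7 processing genes were past 2-fold higher in the aged spleen, Cd83, which protects surface class II from turnover, at 705 CPM against 299 CPM in the young (2.35), and Ctsl at 14.2 against 4.90 CPM (2.89), while 0 of 7 transcription factors and 0 of 10 interferon response genes were, against 1.69% of all genes higher. Rfx5, a factor that binds the X box, had a ratio of 0.842, and the other E beta gene, H2-Eb2, one of 1.13 (38.4 CPM in aged and 34.0 CPM in young B cells). In splenic dendritic cells 0 of the 10 members were past 2-fold between ages, against 5.94% of all genes higher and 2.93% lower. Cd83 was higher there, at 658 CPM in aged and 208 CPM in young cells (3.17), as were the co-stimulation genes Cd86 (4.15) and Cd40 (2.34). The make-up of these cells also differed. A subcluster led by Tbc1d4 and Plbd1 held 34 aged and 34 young cells. Another, with Cacnb3 and Ccr7 among its leading genes, held 28 aged and 12 young cells. Its part in these ratios was not tested.

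Across 22 sums of a class in a library, each of at least 50 cells, the log2 CPM of H2-Ab1 went most closely with the class II sum (Pearson r = 0.982), followed by H2-Aa, H2-Eb1, Cd74 and Ciita (0.905). H2-DMb1 (0.808) and H2-DMa (0.799) followed, and H2-Oa (0.444) went least with it. Each member is part of that sum, which the core genes dominate, so their order is partly built in. Of genes outside the members the 5 most alike were Swap70 (0.857), Wdfy4 (0.829, also among the dendritic markers), Cd40 (0.798), Kmo (0.783) and Gm6377 (0.776). Swap70 stood at 238 CPM in aged and 393 CPM in young B cells, at 74.9 and 94.0 CPM in aged and young border macrophages and at 47.8 and 56.4 CPM in aged and young microglia. These sums share libraries and free RNA, and the values are a description without a test.

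The authors' deposited tables list genes by cluster of a single library, as the percent of cluster cells and of other cells holding the gene. In the authors' deposited table of the aged brain, the cluster led by Cd74, H2-Eb1 and H2-Ab1 holds Cd74 in 60.3% of its cells against 10% of others, H2-Aa in 50.5% against 4.8% and H2-DMa in 40.5% against 17.6%. For the young brain, the authors' deposited table lists H2-DMa in 45.2% of the cells of a cluster led by Cst3 and Cx3cr1, against 11.6% of others, and no other member in that cluster. Among its other clusters, the authors' deposited table of the young brain has one led by Ebf1 and Cd79a with Cd74 in 94.5% of cells, against 13.1% of others. In the shared barcodes left out here B genes of this kind also stand: with them kept, 1821 B cells appear in the young brain, and 0 without them.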

How the data were processed

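Droplet libraries of CD45-high cells were made from brain and spleen, 1 library of each from an aged and 1 from a young sample, with the 10x Chromium kit for 3′ ends, per the labels' protocols. The deposited matrices hold raw UMI counts per gene and barcode, with 31053 genes and 0 columns left unused. Per the file headers they were written by Cell Ranger 3.1.0, while 1.3.1 and GRCh38 stand in the submitters' processing notes; the gene identifiers are those of mouse, and neither the mouse build nor the use of strand is given there. The authors' deposited marker tables give the fraction of cells holding a gene, printed here as percent.

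Barcodes were called as cells by their UMI count or, below that, by a test against the ambient profile (10000 simulations, false discovery rate 0.01). Cells of at least 500 UMIs, 250 genes and at most 10% mitochondrial UMIs were kept, which left 12192 and 8772 in aged and young brain and 5494 and 6603 in aged and young spleen. Doublets were scored with Scrublet in scanpy 1.11.5; its own calls in the brain libraries were 1 and 4, so the top scores at 0.8% per 1000 cells were removed there (1189 and 616 cells), and 206 and 239 cells were removed in the spleens. Barcodes of the young brain with more UMIs in the aged spleen were left out after these steps, also of the ambient profile that levels were set against. Cells of the young brain had thus been called and scored as doublets with these barcodes still in. The number of 616 doublets was set from all 8772 barcodes. Cells were clustered on 2000 variable genes without the class II and related genes (30 components, 15 neighbours, resolution 1.0), and border macrophages again at resolution 0.8. Unnamed clusters held 21.6% and 12% of the cells of aged and young brain and 18% and 10.1% of those of aged and young spleen.

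UMIs were summed per class and library and given as CPM, with exact Poisson, conditional binomial and Clopper-Pearson intervals (SciPy 1.17.1). Shares of cells were also given after thinning to 1000 UMIs. The ratios, their intervals and the 2-fold rule were also run on simulated counts that held counting error only. Those counts had no spread between cells or mice, so they say nothing about either. The members, gene lists and markers were chosen with earlier results of these data known, and the rules for naming clusters were completed after the clusters were seen. All 10 members are described; of the other lists, the counts past 2-fold and up to 4 genes farthest from 1 are named, with further genes of a list named after their values were seen.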

Additional observations from a re-analysis of the deposited data

Results flagged for a closer look

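Ciita differed between classes in the direction of its age ratio, 2.6 in border macrophages (aged over young brain, 174 and 12 UMIs) and 0.692 in B cells (aged over young spleen). Without the Ccr2 subcluster the ratio in border macrophages was 1.41 (0.736 to 2.97), an interval that spans 1. The difference between the ratios of both classes was not tested.

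Subclusters of splenic myeloid cells that the marker rule left without a name also carried class II RNA above the ambient sums of 6837 CPM in the aged and 6127 CPM in the young spleen. Of the marker lists, the conventional dendritic one scored highest in both kinds, at 3.43 and 2.92 in the order given below. Cells led by Apol7c and Dnase1l3 had 25159 CPM in 70 aged cells and 36215 CPM in 47 young cells, and those led by Tbc1d4 and Il1r2 had 19084 CPM in 158 aged cells and 10024 CPM in 19 young cells. At least 1% class II UMIs was reached by 81.4% and 87.2% of the aged and young cells of the first kind and by 88% and 36.8% of those of the second.

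The 5102 young brain barcodes with more UMIs in the aged spleen library had a class II sum of 5975 CPM in the young brain matrix, against 1488 CPM in its ambient profile, and 36% of them reached 1%. Their source was not tested.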

How the results depend on the processing

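No paired analysis was possible because each group is 1 library with no replicate, and for the same reason no leave-one-out value exists. Leaving out the Ccr2 subcluster, adding the unnamed myeloid subclusters and leaving out barcodes with more UMIs in any other library were chosen after seeing the data. The first took out 281 aged and 5 young cells, so ratios between ages without that subcluster rest on an uneven removal. Where a value below is given without a cause, the cause was not tested.

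The class II sum ratio of microglia (1.10 aged over young) became 1.19 with shared barcodes kept, 1.04 thinned, 1.05 under median-of-ratios scaling and 1.05 when class II genes entered the clustering. That of border macrophages (2.08) became 2.45 thinned, 2.59 with a 5% mitochondrial limit, 1.53 with doublets kept, 2.47 with class II genes in the clustering, 2.22 at resolution 2.0, 2.53 as a mean over cells, and turned to 0.900 without the Ccr2 subcluster. With a gene minimum of 10 UMIs or none, 4 members in place of 2 were past 2-fold there. That of B cells (0.993) became 0.981 thinned and turned to 1.08 under median-of-ratios scaling and to 1 with the 5% limit or with doublets kept. That of myeloid cells (1.28) became 1.51 thinned, 1.19 with the 5% limit, 1.43 with class II genes in the clustering, 1.46 as a mean over cells, 1.33 without barcodes shared with any library and 1.14 with the unnamed subclusters.

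Border macrophages over microglia in the aged brain (26.0) became 29.8 thinned, 30 under median-of-ratios scaling, 34.1 with the 5% limit, 20.4 with doublets kept, 33.9 with class II genes in the clustering, 26.6 at resolution 2.0, 28.9 as a mean over cells and 10.3 without the Ccr2 subcluster. In the young brain (13.8) the values were 12.7 thinned, 15.8 under median-of-ratios scaling, 14.5 with the 5% limit, 15 with doublets kept, 12.2 as a mean over cells and 12.6 without the Ccr2 subcluster. B over myeloid cells in the aged spleen (0.971) became 0.952 thinned and 0.943 at 1000 UMIs, and turned to 1.05 with the 5% limit, 1.05 with doublets kept and 1.27 as a mean over cells. In the young spleen (1.25) it became 1.47 thinned, 1.18 under median-of-ratios scaling, 1.18 at 1000 UMIs, 1.33 with doublets kept, 1.38 with class II genes in the clustering, 1.87 as a mean over cells, 1.31 without barcodes shared with any library and 1.12 with the unnamed subclusters.

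Single members also turned. Without the Ccr2 subcluster, border macrophages aged over young stood at 0.786 for H2-Aa, 0.709 for H2-Ab1, 0.683 for H2-Eb1, 0.954 for H2-DMa and 0.936 for H2-DMb1, and over aged microglia at 0.967 for H2-DMa. In B cells aged over young, median-of-ratios scaling gave 1.06 for H2-Ab1, 1.04 for H2-DMa and 1.03 for H2-DMb2, and the 5% limit 1.01 for H2-Ab1. With the unnamed subclusters H2-Aa stood at 0.960 in myeloid cells aged over young and at 1.05 and 0.952 in B over myeloid cells of the aged and young spleen. With class II genes in the clustering H2-DMb2 stood at 3.28 in aged border macrophages over microglia. In B over myeloid cells of the aged spleen, H2-Aa stood at 1.02 at resolution 2.0, H2-Aa, H2-Ab1 and Ciita at 1.18, 1.21 and 1.47 as means over cells, H2-DMb1 at 1.13 thinned and Ciita at 1.02 with the 5% limit, and in the young spleen H2-DMb1 at 1.18 as a mean over cells.

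With ambient barcodes of at most 50 UMIs, H2-DMa stood at 1.23 and 1.45 times and Cd74 at 0.115 and 0.0700 times ambient in aged and young microglia. With all young brain barcodes in the ambient profile they stood at 1.96 and 0.0389 times in young microglia. The number of cells limits the values of the 192 young border macrophages, with 12 UMIs of Ciita.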
